A study of Mus musculus with 10 samples.

Results

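Type I interferons are cytokines that cells release on sensing viral or misplaced nucleic acid. They bind a receptor made of IFNAR1 and IFNAR2, whose kinases JAK1 and TYK2 activate STAT proteins, and STAT2 acts with IRF9 in the complex ISGF3, which binds the interferon-stimulated response element (ISRE) of its target genes. The targets include antiviral effectors, nucleic acid sensors, the transcription factor IRF7, which renews interferon production, and the inhibitor USP18, which closes the receptor to further signal. A subset of microglia, the resident macrophages of the brain, is known to express such genes in ageing and disease. The 36 genes described here were taken by symbol from a list of interferon response genes, and all 36 were found among the 53697 genes of the count tables.

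RNA of microglia was sequenced in 10 libraries without treatment, 5 per genotype, wild type (WT) or knocked out for Bhlhe40 and Bhlhe41 (DKO), all from female mice. DKO mice lack both copies of Bhlhe40 and of Bhlhe41 in every cell of the body, and a C57BL/6 background is stated for all mice. WT mice are named as C57BL/6J or Rosa26Stop-YFP in the study's methods and as littermates in its results. Ages of at least 2 and 6 months are stated for the study's mice, with none given for single libraries. BHLHE40 and BHLHE41 are related basic helix-loop-helix factors that repress transcription, and the mouse comparison asks how microglial RNA differs without them. The cells were double sorted from digested brain as viable, CD45.2+ and CD11b+, and as negative for Ly6C, Ly6G, MHCII and CD38. The labels do not tell whether a library stands for 1 mouse, so the p-values describe the spread among these libraries, and differences in strain or age between the genotypes cannot be told apart from the deletion.

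Estimated counts totalled 22483044 to 26109107 per library. Bhlhe40 was read at 4 to 28 counts in WT and 1 to 8 in DKO libraries, and Bhlhe41 at 754 to 1305 and 997 to 1356 counts, with an average transcript length of 5878 to 6133 bases in WT and 1851 to 2719 in DKO libraries. Mitochondrial RNA took 1.75% of counts in WT 1, 1.54% in WT 5 and 1.58% in DKO 3, against 0.986% to 1.16% in the other libraries. Of 12 microglial marker genes, all passed the count filter, and P2ry12, a purinergic receptor, fell from 10766 ± 1335 to 7609 ± 974 counts per 1000000 (CPM; SD, n = 5 each), while no other passed the test.

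The sequences below show matches to the ISRE, the element that ISGF3 binds. They were found by letters alone, and binding was not measured. Of the 36 genes, 27 had an entry in the RefSeq promoter table (GRCm38.p6), which covers 250 bases before to 50 after each start. An ISRE was searched as GAAA and GAAA with any 2 bases between, or the reverse complement, on both strands. It was found in 15 of the 27 genes (55.6%), against 3.99% of all 27025 genes of the table. Of the interferon response genes that rose in DKO microglia (below), 3 of the 5 with an entry held it, and of those tested that did not pass the test 12 of 22 (54.5%) did. The windows of Irf7 and Sp100, which rose, held none, and no match says only that these letters are not in this window. In each line the ISRE letters are in capitals, and neighbouring matches run together. The first lines are from genes that rose.

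Oas1a, chr5:120907526-120907575, minus strand, 50 to 1 bases before the start: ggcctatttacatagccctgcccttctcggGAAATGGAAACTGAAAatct

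Slfn5, chr11:82951917-82951986, plus strand, 185 to 116 bases before the start: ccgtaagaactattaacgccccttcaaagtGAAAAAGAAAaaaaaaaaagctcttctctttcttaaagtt

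Ifitm3, chr7:141010716-141010742, minus strand, bases 3 to 29 after the start: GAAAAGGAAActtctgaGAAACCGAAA

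The next lines are from well-known targets that did not pass the test.

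Isg15, chr4:156200845-156200926, minus strand, 108 to 27 bases before the start: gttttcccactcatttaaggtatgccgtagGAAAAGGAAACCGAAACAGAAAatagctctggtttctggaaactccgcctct

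Ifit1, chr19:34640755-34640843, plus strand, 134 to 46 bases before the start: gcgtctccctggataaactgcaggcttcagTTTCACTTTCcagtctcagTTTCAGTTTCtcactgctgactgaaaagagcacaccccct

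Bst2, chr8:71537557-71537632, minus strand, 160 to 85 bases before the start: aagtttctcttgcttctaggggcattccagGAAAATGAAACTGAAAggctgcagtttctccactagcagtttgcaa

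Gbp2, chr3:142620574-142620643, plus strand, 89 to 20 bases before the start: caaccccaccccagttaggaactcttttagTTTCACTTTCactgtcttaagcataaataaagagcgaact

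Isg15 held 3 overlapping matches, and Oas1a, Bst2, Ifitm3 and Ifit1 held 2 each. The GAS element, best known from the response to interferon gamma, was searched as TTC and GAA with any 3 bases between, which reads alike on both strands. It was found in 7 of the 27 genes (25.9%), among them Irf1, Oas1a and Bst2, against 9.55% of all genes, and it overlapped an ISRE match in Ifitm3 and Bst2. The E-box CACGTG, the sequence that BHLHE40 and BHLHE41 are known to bind, was found in 0 of the 27 genes. It was found in 8.09% of all genes and in 11.7% of those that passed the count filter. With 27 genes, a count of 0 says little about so small a share. In a longer list of 95 other interferon-stimulated genes, of which 80 had an entry, 31 (38.8%) held an ISRE and 4 (5.0%) an E-box.

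**Figure D1:**
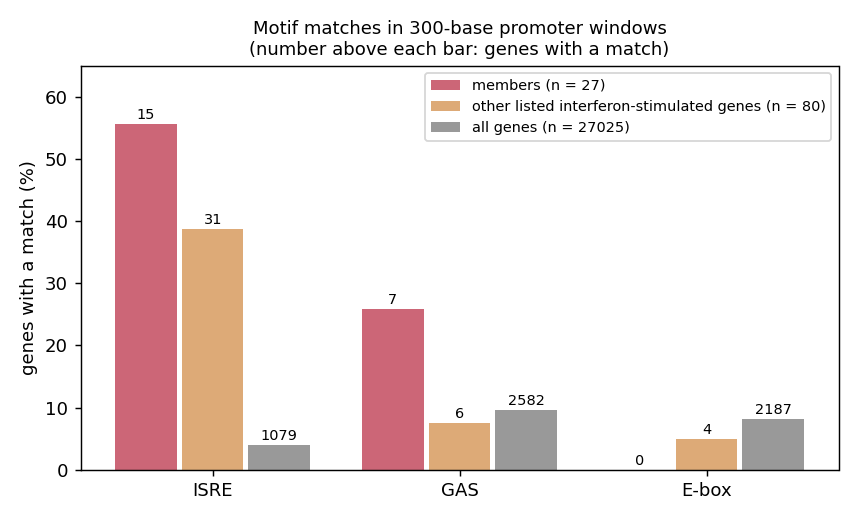
Share of genes (%, y axis) with an ISRE, GAS or E-box match in the promoter window, for the 27 interferon response genes with an entry, 80 other interferon-stimulated genes and all 27025 genes, with the number of genes with a match above each bar. The ISRE was found in 55.6% of the interferon response genes and 3.99% of all genes, and the E-box in none of the 27.

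DKO and WT counts were compared by the quasi-likelihood test of edgeR, and p-values were adjusted by Benjamini and Hochberg over all 13916 genes that passed the count filter, 35 of the 36 interferon response genes among them. Of these 35, 7 rose in DKO microglia and 0 fell at an adjusted p of 0.05. These were Ifitm3, Ifi27l2a, Irf7, Oas1a, Usp18, Sp100 and Slfn5, by 1.76-fold to 2.29-fold. The 7 are 20% of those tested, while 4.34% of all tested genes rose, 1.85% fell and 6.19% changed in either direction. At an unadjusted p of 0.05, 14 of the 35 were higher, against 13.3% of all tested genes, and 0 were lower. In 7 of the 35, the same that rose, every DKO library lay above every WT library, which held for 4.33% of all tested genes, and in 0 every DKO library lay below, against 3.29%. The median log2 fold change of the 35 was 0.33, against -0.01 for all tested genes, and 30 of the 35 (85.7%) had a positive log2 fold change, against 48.7%. All of the tested genes but Oas3 and Ifi44 reached the filter's cutoff of 0.404 CPM in every library of both genotypes, so none of the 7 passed the filter through its DKO level alone. In bulk RNA, more cells with the response and more of its RNA per cell cannot be told apart.

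**Figure D2:**
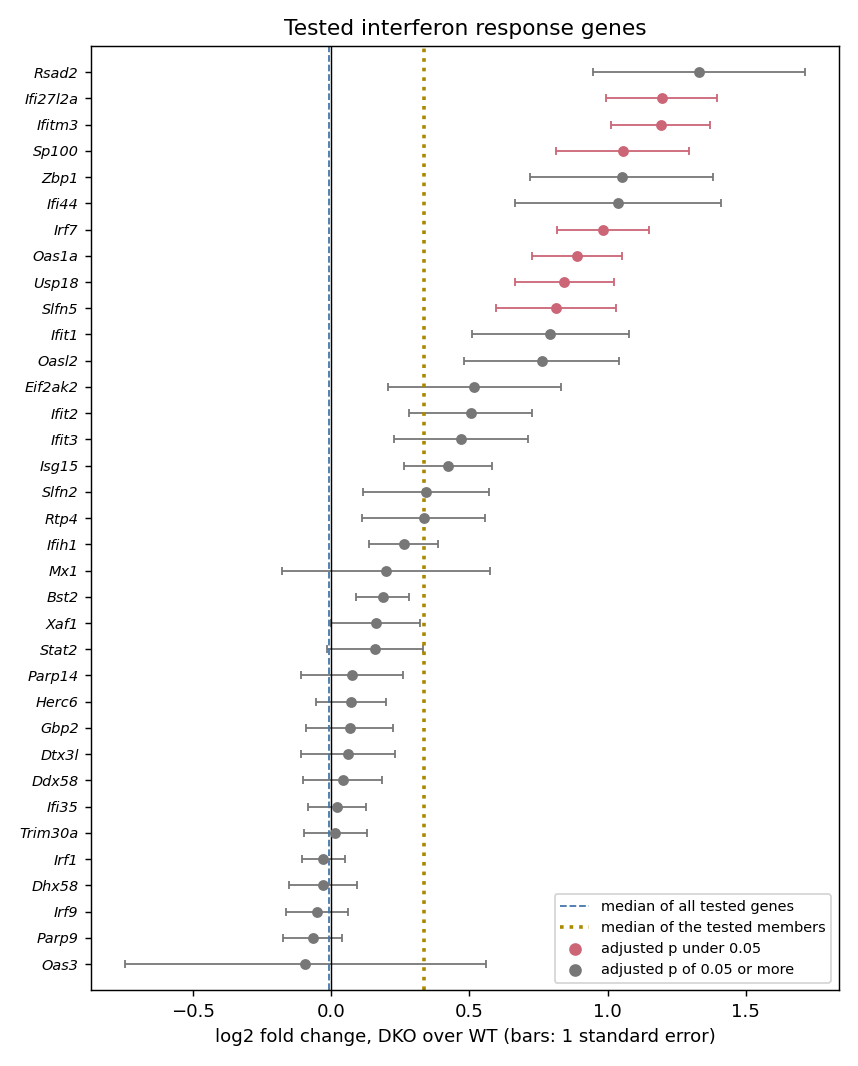
Log2 fold change, DKO over WT (x axis, with 1 standard error), of the 35 tested interferon response genes (y axis), coloured by whether the adjusted p is under 0.05. The 7 that rose lie between 0.81 and 1.20, Rsad2 lies higher at 1.33 with a wider error, and the lower genes lie around 0.

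Of the transcription factors Irf7, Stat2, Irf9 and Irf1, 1 passed the test. Irf7, the interferon-inducible factor that renews interferon transcription, rose. Irf7 was read at 6.23, 5.39, 6.09, 6.66 and 4.55 CPM in WT 1 to WT 5 and at 10.9, 8.21, 13.9, 12.8 and 11.4 CPM in DKO 1 to DKO 5. The lowest DKO library, DKO 2, was still above the highest WT library. On the log2 scale the change was 0.98 (SE 0.17, edgeR adjusted p = 0.00565). Irf7 lies at chr7:141262706-141266481 (GRCm38, GENCODE M21) and overlaps Phrf1 on the other strand, and the library kit does not mark strand. Phrf1 itself went from 38.4 CPM to 45.5 CPM on average (adjusted p = 0.552).

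Stat2, the ISGF3 subunit that carries the activation domain, was read at 19.2, 28.4, 21.8, 15.3 and 15.4 CPM in WT and 26.1, 21.6, 23.6, 19.9 and 20.3 CPM in DKO libraries. The highest value was that of WT 2, and the genotypes overlapped. Its log2 fold change was 0.16 (SE 0.17, edgeR adjusted p = 0.62). Irf9, the DNA-binding subunit of ISGF3, was read at 113, 101, 102, 117 and 129 CPM in WT and 104, 87.8, 130, 110 and 111 CPM in DKO libraries, with a log2 fold change of -0.05 (SE 0.11, adjusted p = 0.812). Irf1, a factor of the same family that interferon gamma also induces, was read at 107, 105, 105, 113 and 118 CPM in WT and 102, 97.3, 114, 111 and 113 CPM in DKO libraries, with a log2 fold change of -0.03 (SE 0.08, adjusted p = 0.852). Both were even across the 10 libraries, and their genotypes overlapped throughout.

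Usp18, the protease that removes ISG15 from proteins and also binds IFNAR2 to damp the receptor, rose. It was read at 17.8, 10.2, 13.3, 17.9 and 14.4 CPM in WT and 27.1, 19.4, 32.1, 28.6 and 24.8 CPM in DKO libraries. DKO 2 was the lowest of the DKO libraries and lay close above WT 4 and WT 1, and the others lay well apart from the WT range. This gave a log2 fold change of 0.84 (SE 0.18, edgeR adjusted p = 0.0195), and the adjusted p was 0.0529 without DKO 1 and 0.0728 without WT 1, WT 5 and DKO 3. Usp18 lies at chr6:121245906-121270917, on the chromosome of both targeted genes, 12.58 Mb from Bhlhe40 and 24.59 Mb from Bhlhe41. Within 20 Mb of Bhlhe40, 15 of 227 tested genes were past the threshold in either direction (6.61%), and within 20 Mb of Bhlhe41, 17 of 115 (14.8%). The part of this neighbourhood in the value of Usp18 was not tested. Isg15, the ubiquitin-like protein that USP18 removes, was read at 2.69 to 3.60 CPM in WT and 3.57 to 4.80 CPM in DKO libraries, with a log2 fold change of 0.42 (SE 0.16, adjusted p = 0.137). Herc6, the main ligase for ISG15 in mice, was at 0.07 (SE 0.13).

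Among the membrane-associated effectors, Ifitm3 had the smallest p of the 36 genes. IFITM3 sits in endosomal membranes and keeps enveloped viruses from fusing with them. Its values were 15.2, 10.8, 14.3, 12.5 and 7.60 CPM in WT and 24.1, 24.8, 32.9, 28.5 and 27.6 CPM in DKO libraries. The genotypes were far apart, with WT 5 lowest and DKO 3 highest. The log2 fold change was 1.19 (SE 0.18, edgeR adjusted p = 0.00273), or 2.28-fold. Ifitm2, its near copy on the same chromosome, went up from 1.04 ± 0.257 to 4.03 ± 0.881 CPM (log2 fold change 1.95, SE 0.23, edgeR adjusted p = 0.000557; SD, n = 5 each), and the sources used here do not give how the counting divided reads between them. Ifitm3 (chr7:141009586-141010770) and Irf7 are 251936 bases apart, and within 1 Mb of Irf7, 3 of 38 tested genes were past the threshold, Ifitm2, Ifitm3 and Irf7, so these values come from 1 region of the genome.

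Ifi27l2a, a small membrane protein that is among the most inducible interferon targets in brain myeloid cells, rose 2.29-fold. It was read at 8.32, 5.94, 8.06, 6.99 and 4.51 CPM in WT and 14.2, 10.9, 18.8, 15.4 and 18.2 CPM in DKO libraries. WT 5 was again lowest and DKO 3 highest, and no values overlapped. The difference was a log2 fold change of 1.20 (SE 0.20, edgeR adjusted p = 0.0053). Its transcript is short (463 bases), so per length it went from 44.6 ± 11.1 to 97.4 ± 21.1 transcripts per 1000000 (TPM, recomputed without the short RNA Gm23935; SD, n = 5 each), among the highest levels of the 36 genes.

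Bst2, or tetherin, which holds budding virus at the cell surface, had the highest level per length, 207 ± 14.7 TPM in WT and 223 ± 8.06 TPM in DKO microglia (SD, n = 5 each). The libraries gave 61.7, 59.8, 68.2, 72.3 and 60.8 CPM in WT and 70.3, 70.7, 64.1, 81.9 and 80.0 CPM in DKO libraries. The genotypes overlapped through DKO 3 and WT 4. Its log2 fold change was 0.19 (SE 0.10, edgeR adjusted p = 0.275). Per length, Ifi27l2a was thus below Bst2 in both genotypes.

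**Figure D3:**
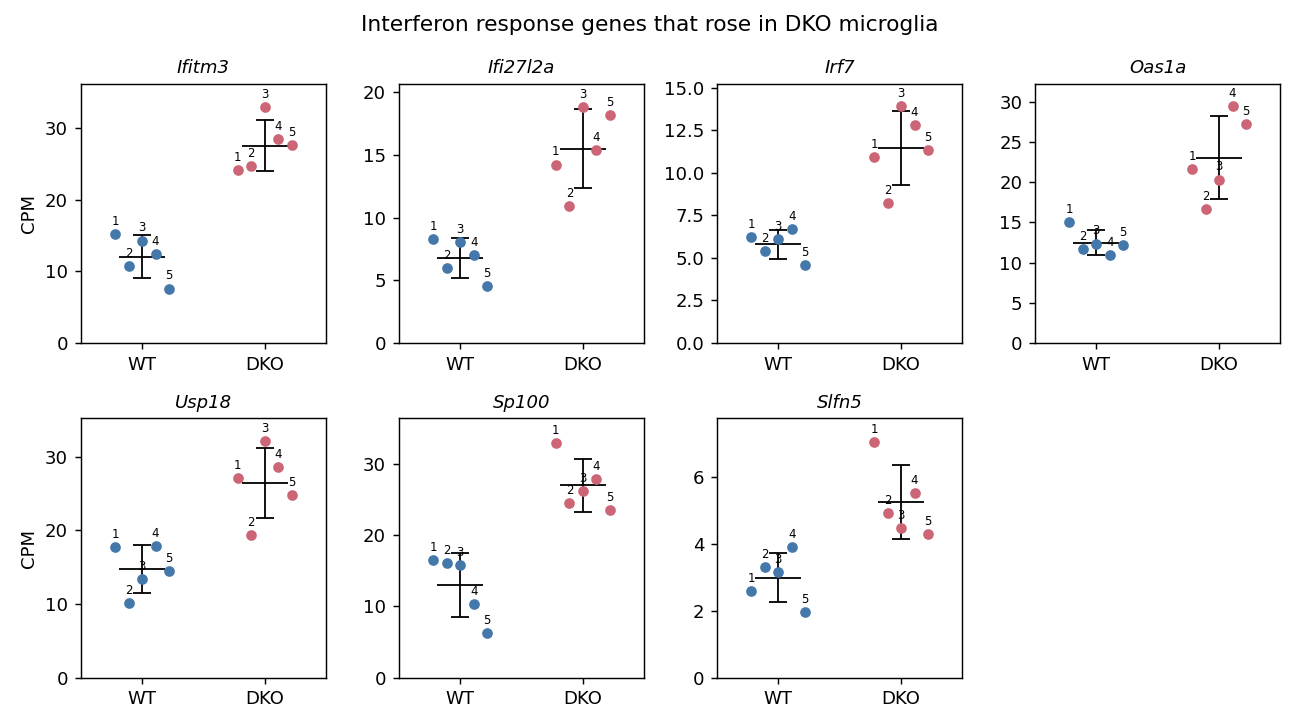
CPM (y axis, from 0) of the 7 interferon response genes that rose, with 1 point per library labelled by its replicate number, and the mean and SD of the 5 WT and 5 DKO libraries in black. In each gene every DKO point lies above every WT point. In CPM the narrowest gap is in Slfn5 (3.91 in WT 4 against 4.29 in DKO 5), and for its level the gap is also narrow in Usp18 (17.9 in WT 4 against 19.4 in DKO 2).

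The oligoadenylate synthetases make 2'-5' linked oligoadenylate, which activates RNase L. Of these, Oas1a rose. Libraries were at 15.1, 11.7, 12.4, 11.0 and 12.2 CPM in WT and 21.6, 16.7, 20.3, 29.5 and 27.2 CPM in DKO libraries. DKO 4 and DKO 5 were the highest, and DKO 2 was the nearest to the WT range, whose upper end was WT 1. The log2 fold change was 0.89 (SE 0.16, edgeR adjusted p = 0.00952). Reads of Oas1a and its near copy Oas1g could be split by the counting. Oasl2, an OAS-like protein with ubiquitin-like domains, was read at 2.63 to 9.25 CPM in WT and 7.49 to 13.6 CPM in DKO libraries (log2 fold change 0.76, SE 0.28, adjusted p = 0.131). Oas3 was scarce, at 0.226 to 1.55 and 0.128 to 1.20 CPM (log2 fold change -0.09, SE 0.65). Oas2 had too few counts to be tested, with 11, 5, 4, 0 and 1 in WT and 0, 0, 0, 2 and 0 in DKO libraries, so its counts ran the other way at a level near the limit of detection.

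Rsad2, or viperin, which makes a nucleotide that stops viral RNA synthesis, had the largest log2 fold change of the 36 genes and did not pass the test. It was read at 2.85, 1.40, 1.74, 1.11 and 1.20 CPM in WT and 3.80, 2.36, 8.49, 3.10 and 3.19 CPM in DKO libraries. DKO 3 stood far above the other libraries, and DKO 2 lay below WT 1. The log2 fold change was 1.33 (SE 0.38, edgeR adjusted p = 0.0639). Zbp1, a sensor of left-handed nucleic acid that can start necroptosis, followed the same pattern, at 1.91, 1.66, 1.30, 0.946 and 0.602 CPM in WT and 2.39, 1.83, 4.20, 2.73 and 2.17 CPM in DKO libraries. Again DKO 3 was highest, and WT 1 lay above DKO 2. The log2 fold change was 1.05 (SE 0.33, adjusted p = 0.0854).

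The IFIT proteins bind viral RNA with foreign 5' ends. Ifit1 was read at 1.43 to 5.26 CPM in WT and 4.46 to 5.99 CPM in DKO libraries, with a log2 fold change of 0.79 (SE 0.28, adjusted p = 0.12). Ifit2 was at 0.50 (SE 0.22, adjusted p = 0.2) and Ifit3 at 0.47 (SE 0.24, adjusted p = 0.271), and in all 3 genes WT 1 was the highest WT library and lay within the DKO range. Reads of Ifit3 and its near copy Ifit3b could be split. Ifi44, a cytoplasmic protein of the response, was read at 0.340 to 1.59 CPM in WT and 1.16 to 1.93 CPM in DKO libraries (log2 fold change 1.04, SE 0.37, adjusted p = 0.124), and WT 1 was the one WT library inside the DKO range. Mx1, a dynamin-like GTPase, had a log2 fold change of 0.20 (SE 0.38) and was highest in DKO 1.

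Sp100, a component of the nuclear bodies that form around PML, rose. It was read at 16.5, 16.1, 15.8, 10.4 and 6.21 CPM in WT and 33.0, 24.4, 26.1, 27.9 and 23.5 CPM in DKO libraries. WT 4 and WT 5 were low, and all DKO libraries stood above the other WT libraries. The resulting log2 fold change was 1.05 (SE 0.24, edgeR adjusted p = 0.0272). The average transcript length behind its counts was 1283 to 1473 bases in WT and 1518 to 1623 bases in DKO libraries, so the genotypes did not overlap in length either. It was the only one of the 35 genes with lengths that did not overlap. On log2(TPM + 1), which divides by that length, the log2 fold change of Sp100 was 0.79 (SE 0.24, limma adjusted p = 0.0667), and on log2(TPM + 0.1) it was 0.84 (SE 0.25, adjusted p = 0.0679), so it was higher in DKO but did not pass. Without WT 4, DKO 1 or DKO 2, its adjusted p reached at most 0.076.

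Slfn5, a Schlafen family protein that is thought to act in the nucleus, rose by the smallest margin. Its values were 2.59, 3.31, 3.16, 3.91 and 1.96 CPM in WT and 7.05, 4.91, 4.46, 5.50 and 4.29 CPM in DKO libraries. DKO 5 lay close above WT 4, and DKO 1 was highest. The log2 fold change was 0.81 (SE 0.22, edgeR adjusted p = 0.0483), and leaving out any library but WT 3 or WT 4 took the adjusted p to 0.05 or more, at most 0.126. It overlaps Slfn5os on the other strand. Slfn2, a Schlafen protein that keeps T cells quiescent, was read at 42.3 to 85.5 CPM in WT and 51.9 to 103 CPM in DKO libraries (log2 fold change 0.34, SE 0.23).

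None of the RNA sensors and their regulators passed the test. Ifih1 (MDA5) had a log2 fold change of 0.26 (SE 0.13, adjusted p = 0.235), Ddx58 (RIG-I) of 0.04 (SE 0.14) and Dhx58 (LGP2) of -0.03 (SE 0.12). Eif2ak2, the kinase PKR that halts translation, was at 0.52 (SE 0.31) and ranged from 5.38 to 16.9 CPM within WT alone, and it overlaps Gm26637 on the other strand. Among the genes of ubiquitin and ADP-ribose transfer, Parp14 was at 0.07 (SE 0.18), Parp9 at -0.07 (SE 0.11), its partner Dtx3l, which overlaps it on the other strand, at 0.06 (SE 0.17) and Trim30a at 0.02 (SE 0.11). Ifi35, which joins a complex with NMI, was at 73.4 ± 6.49 TPM in WT and 71.4 ± 4.97 TPM in DKO microglia, and Irf1 at 79.8 ± 2.78 and 74.8 ± 6.88 TPM (SD, n = 5 each). In WT only Bst2 was above both per length, while in DKO microglia Ifi27l2a, Ifitm3 and Slfn2 were too. Ifi35 was read at 47.4, 44.9, 44.7, 59.5 and 56.6 CPM in WT and 49.2, 48.2, 52.7, 51.8 and 54.6 CPM in DKO libraries. WT held both its lowest and its highest values, and the log2 fold change was 0.02 (SE 0.10, edgeR adjusted p = 0.927). The other genes were Rtp4, a chaperone of membrane receptors, at 0.33 (SE 0.22), Xaf1, a promoter of cell death, at 0.16 (SE 0.16), and Gbp2, a GTPase that targets vacuoles of pathogens, at 0.07 (SE 0.16).

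Levels spanned a wide range per length. In WT microglia they ran from 0.0834 TPM for Oas2 and 0.18 TPM for Oas3 through 0.226 TPM for Ifi44, 4.86 TPM for Irf7, 10.1 TPM for Oas1a, 13.5 TPM for Usp18, 14.7 TPM for Sp100 and 38.5 TPM for Ifitm3 to Irf9 (69.8 TPM), Ifi35, Irf1 and Bst2. Neighbours in this order, such as Usp18 and Sp100 with SDs of 2.93 and 5.43 TPM, or Irf9 and Ifi35 with SDs of 7.06 and 6.49 TPM, did not differ beyond their spread. Slfn5 was at 0.891 ± 0.392 TPM in WT (SD, n = 5).

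**Figure D4:**
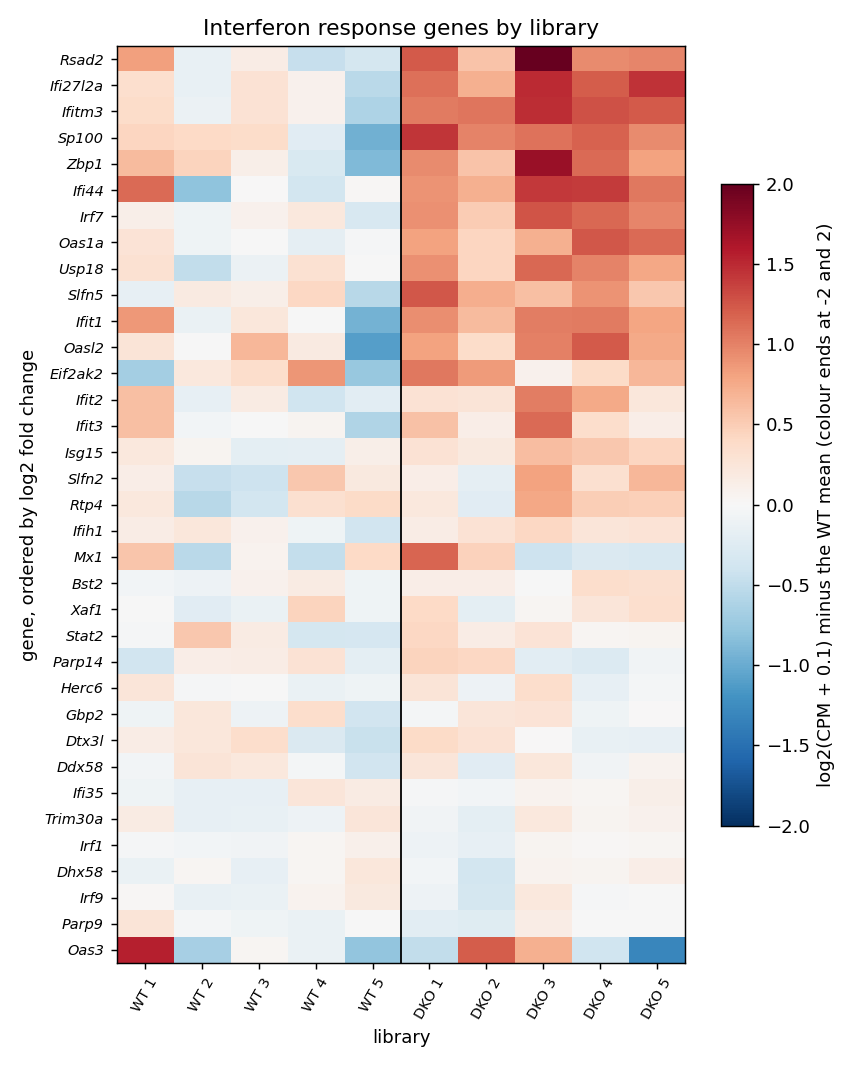
Log2(CPM + 0.1) minus the WT mean, in colour from -2 to 2, for the 35 tested interferon response genes (rows, ordered by log2 fold change) in the 10 libraries (columns). The upper rows are red throughout the DKO libraries, most in DKO 3, WT 1 is red and WT 5 blue in many of them, and the lower rows hold little colour.

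The libraries did not carry the response evenly. DKO 3 held the highest value of all 10 libraries in 15 of the 35 genes, and the highest DKO value in 19. DKO 2 held the lowest DKO value in 21. Among WT libraries, WT 1 was highest in 15 genes, and WT 5 was lowest in 15 and lowest of all 10 libraries in 14. Summed over the 36 genes, RNA was 898.5 to 1000.4 CPM in WT and 948.1 to 1204 CPM in DKO libraries, and the sums overlapped. Irf9, Irf1, Dtx3l, Trim30a, Slfn2, Parp9, Bst2 and Ifi35, none of which passed the test, made up most of them.

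**Figure D5:**
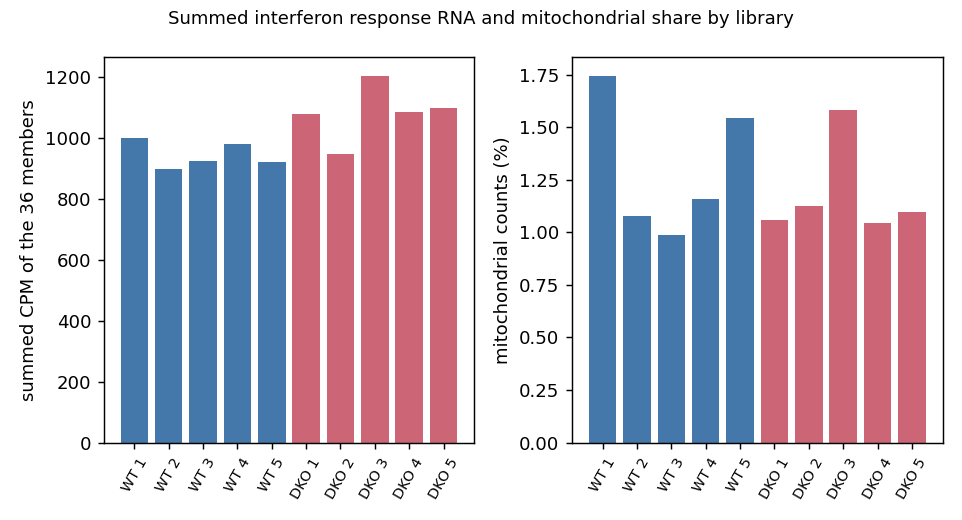
Summed CPM of the 36 interferon response genes (left) and mitochondrial share of counts in % (right) in each library, WT in blue and DKO in red, both axes from 0. DKO 3 has the highest sum at 1204 CPM and DKO 2 the lowest DKO sum at 948.1 CPM, while WT 1, WT 5 and DKO 3 have the highest mitochondrial shares.

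DKO 3 and WT 1, high in many of these genes, and WT 5, low in many, are also the libraries with the most mitochondrial RNA, and its part in the values was not tested. Without WT 1 and WT 5, 8 of the 35 genes rose, with Ifi44 and Ifit1 added and Slfn5 lost, and without WT 1, WT 5 and DKO 3, a choice made after seeing the data, 5 did, Ifitm3, Ifi27l2a, Irf7, Oas1a and Sp100. By the replicate numbers, libraries 4 and 5 of each genotype were compared with 1 to 3 across both. Dtx3l was the 1 interferon response gene past the threshold (61.3 against 86.5 CPM, log2 fold change -0.50, SE 0.09, edgeR adjusted p = 0.0226), against 3.38% of all tested genes. In libraries 1 to 3 alone the 7 genes had log2 fold changes of 0.58 (Oas1a) to 1.02 (Ifitm3), and in libraries 4 and 5 alone of 0.72 (Usp18) to 1.63 (Sp100). All 7 were higher in DKO within both, which had to be so, since in each of them every DKO library lay above every WT library. None passed the test in either set, where fewer libraries were used.

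The interferons themselves were at the limit of detection. Over 18 type I interferon genes, WT libraries held 17 counts and DKO libraries 14, of totals of 124562163 and 120314029, with 7 and 5 counts of Ifnb1, the interferon beta gene. A gene with 0 counts in 1 library could still be present at up to 0.115 to 0.133 CPM (3 counts). None of these genes was tested, and no difference in interferon RNA was detectable at this depth. Of 5 tested receptor chains, 1 rose (20%, against 4.34% of all tested genes) and 0 fell. This was Ifnar2, from 401 ± 64.1 to 548 ± 25.6 CPM (log2 fold change 0.45, SE 0.11, edgeR adjusted p = 0.0333). Its WT libraries reached up to 475 CPM, with WT 1 (345 CPM) and WT 5 (325 CPM) the lowest, and its DKO libraries ran from 509 to 573 CPM. Ifnar1 was at 112 ± 7.49 and 123 ± 7.66 CPM (log2 fold change 0.14, adjusted p = 0.314; SD, n = 5 each).

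Of 16 inhibitors of signalling, 2 rose (12.5%, against 4.34% of all tested genes) and 0 fell. Pias2, a SUMO ligase, went from 7.98 ± 2.56 to 19.4 ± 7.15 CPM (log2 fold change 1.28, SE 0.28, edgeR adjusted p = 0.0226), and its genotypes overlapped. Irf2bp1, a co-repressor of IRF2, went from 4.84 ± 1.09 to 14.9 ± 9.43 CPM (log2 fold change 1.62, SE 0.39, adjusted p = 0.0333). Its DKO libraries ran from 6.40 to 29.4 CPM, and its WT libraries up to 5.98 CPM. Neither Pias2 nor Irf2bp1 is a target by which the interferon response is usually followed. Of 24 tested sensors and adaptors, 1 rose (4.17%) and 1 fell, against 4.34% and 1.85% of all tested genes. Samhd1, a nuclease of nucleotides that is itself interferon inducible, rose from 50.9 ± 3.83 to 94.2 ± 6.47 CPM (log2 fold change 0.89, SE 0.09, adjusted p = 0.000149), and Tmem173 (STING), the adaptor of cytosolic DNA sensing, fell from 1073 ± 114 to 758 ± 70.9 CPM (log2 fold change -0.50, SE 0.10, adjusted p = 0.0124; SD, n = 5 each).

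In the longer list of other interferon-stimulated genes, 15 of 85 tested rose (17.6%) and 0 fell, with a median log2 fold change of 0.24. By smallest p these were H2-K1 and H2-D1, which present peptides as MHC class I heavy chains, Ifitm2 and Ifi213, a DNA sensor of the AIM2 family. H2-K1 rose from 494 ± 50.6 to 903 ± 95.8 CPM (log2 fold change 0.87, SE 0.10, edgeR adjusted p = 0.000524). H2-D1 rose from 901 ± 298 to 2126 ± 457 CPM (log2 fold change 1.24, SE 0.25, adjusted p = 0.0145), and Ifi213 from 0.66 ± 0.157 to 1.51 ± 0.272 CPM (log2 fold change 1.18, SE 0.24, adjusted p = 0.0155; SD, n = 5 each). With upper-quartile factors 8 of this list rose and 3 fell, and with library size alone 9 rose and 3 fell.

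Lists of related programmes also held changed genes, against the 4.34% of all tested genes that rose and the 1.85% that fell. Of 17 tested genes that respond mainly to interferon gamma, 1 rose, H2-Ab1, an MHC class II chain (17.1 to 39.6 CPM, log2 fold change 1.21, SE 0.18, edgeR adjusted p = 0.00248), in cells gated as negative for surface MHCII. Of 16 tested NF-kappaB response genes, 4 rose (25%, a larger share than the 20% of the interferon response genes), Nfkb2, Ccl3, Relb and Il6, by log2 fold changes of 0.46 to 1.62, and 1 fell, Nfkb1, by 0.51 on the log2 scale. Of 18 genes known to respond to tissue dissociation, 0 rose and 1 fell, Btg2 (540 to 371 CPM, adjusted p = 0.0272).

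Summed levels of markers of other cells differed widely between the lists, and some markers moved with the genotype. The summed level of 10 monocyte markers was 16.0 to 20.2 CPM in WT and 27.4 to 37.1 CPM in DKO libraries. Of 5 tested, Cd44 and Ly6a rose, and 4 had a positive log2 fold change. Plac8 had a negative one (0.812 to 0.228 CPM, log2 fold change -1.81, edgeR adjusted p = 0.116). Ly6a was the largest part of the sums, with means of 11.8 CPM in WT and 19.8 CPM in DKO libraries. Cd44 went from 1.28 to 7.02 CPM. Ly6a, a surface protein, is also in the list of other interferon-stimulated genes. Chil3 was at 0 in all libraries. Of 8 markers of border-associated macrophages, with sums of 5.37 to 16.0 and 7.16 to 27.7 CPM, Pf4 rose (0.149 to 3.91 CPM) and Lyve1 and Cd163 were at 0. Of 9 markers of plasmacytoid dendritic cells, the chief producers of interferon, with sums of 1411 to 2256 and 1597 to 2542 CPM, Cox6a2 rose, Ly6d and Klk1 were at 0, and Bst2 and Siglech are expressed by microglia too. Of 10 T and NK cell markers, with sums of 0.658 to 2.03 and 1.11 to 2.01 CPM, 0 of 1 tested changed, and Trac, Nkg7, Ncr1 and Cd3g were at 0. Of 10 neutrophil markers, with sums of 300 to 643 and 478 to 779 CPM mostly from Csf3r, which microglia express, 0 of 1 tested changed, with S100a8 and S100a9 at 0, and of 8 B cell markers 0 of 3 tested changed (424 to 695 and 540 to 913 CPM, mostly from Ighm), with Pax5 and Igkc at 0. Endothelial and mural markers (41.5 to 64.4 and 11.9 to 18.8 CPM) held 1 gene that fell of 4 tested, Pecam1, while 3 of the 4 had a positive log2 fold change. Astrocyte markers (243 to 398 and 158 to 210 CPM) held Slc1a3, which fell of 6 tested, while 3 of the 6 had a positive log2 fold change. Of the neuronal (7.77 to 9.55 and 8.52 to 12.7 CPM) and red blood cell markers (0.0424 to 13.1 and 0.772 to 16.2 CPM), 0 of 4 tested each changed. The part of these cells in the interferon response was not tested.

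Outside the 36 genes, 5 genes varied most like the mean of the 35 genes among the libraries of 1 genotype, over 10 libraries and 7955 candidates. These were Zfp938 (Pearson r = 0.89), Cdc37l1 (0.88), Zfp937 (0.86), Ube2l6 (0.86) and Stradb (0.84). Ube2l6, the conjugating enzyme of ISG15, is itself interferon inducible and was at 41.1 ± 5.39 and 56.6 ± 8.52 CPM (log2 fold change 0.46, SE 0.13, edgeR adjusted p = 0.0607; SD, n = 5 each). The libraries share depth and RNA quality across genes, and the values are given as a description.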

How the data were processed

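The members, the gene lists and the tests were chosen with earlier results of these data known. The submitters' notes list FastQC 0.11.8, cutadapt 2.6 for trimming and STAR 2.5.3a with mm10 for alignment. The program that turned alignments into gene values was not given in the sources used here. Deposited files hold an estimated count per gene (unnormalized), a TPM scaled by the authors' tool to a common total, and transcript lengths.

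After rounding, genes were kept by filterByExpr (minimum count 10). The quasi-likelihood test of edgeR 4.0.16 in R 4.3.3, with TMM factors and genotype as the only term, gave DKO over WT for 13916 genes, and Benjamini-Hochberg adjusted p under 0.05 counted as changed. CPM use the same factors. Dividing the absolute log2 fold change by the root of F gave the SE. TPM was recomputed without Gm23935, a short RNA whose share differed between libraries. Motifs were searched in RefSeq promoter windows, and 98.34% of gene IDs matched GENCODE M21 (GRCm38). Any 2 of the 10 libraries differed in the counts of at least 98.07% of compared genes, so none was a copy. With 22483044 to 26109107 counts per library, precision for scarce genes is limited by counting.

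Of the 36 members, full values are given for those past the threshold, the 4 with the highest TPM, the 4 with the largest spread of log2 CPM (at least 1 on average) and Stat2, Irf9, Irf7, Irf1 and Usp18. From each of the other lists, up to 4 changed genes with the smallest p are named (2 for marker lists), and genes counted as 0 are named besides. Alternatives were RLE, upper-quartile or no factors, DESeq2 1.42.0, limma 3.58.1 (voom, voom with quality weights, log2 TPM plus 1 or 0.1), other filters, a replicate block, a term for libraries 4 and 5, subsets of libraries and leaving out each library. The edgeR, DESeq2 and limma code was tested on simulated counts. The human experiments of the study were not used here, and some genes and lists are not reported here.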

Additional observations from a re-analysis of the deposited data

Results flagged for a closer look

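In each genotype, the CPM of every one of the 36 genes was checked for 1 library that lay apart from the other 4, by Dixon's criterion for 5 values. Of 72 groups, 5 had such a library, and chance marks about 1 in 20 groups. Rsad2 stood at 8.49 CPM in DKO 3, against 3.80 CPM in the next DKO library. Xaf1 stood at 17.4 CPM in WT 4, against 12.6 CPM in the next. WT 1 lay apart in Ifi44, at 1.59 against 0.677 CPM, and in Oas3, at 1.55 against 0.474 CPM. Oas2 had 0.0815 CPM in DKO 4, or 2 counts, and 0 in the other DKO libraries. None of the 7 genes that rose was among them.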

How the results depend on the processing

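The 36 genes were recomputed under 26 other settings. None of them was called lower in any. In the main setting 7 rose, and the number was 5 to 9 in all other settings but 3. It was 0 in libraries 1 to 3 alone and 0 in libraries 4 and 5 alone, which have fewer libraries, and 4 to 9 with each library left out in turn, where 4 was reached without DKO 1. Ifitm3, Ifi27l2a, Irf7 and Oas1a were called with every library left out in turn and in 14 of the 16 remaining settings, Usp18 in 9 of 10 and 13 of 16, Sp100 in 7 of 10 and 12 of 16, and Slfn5 in 2 of 10 and 6 of 16. None of these 7 changed sign. For subsets of libraries this says little, since in all 7 every DKO library lay above every WT library. Rsad2 and Zbp1 were also called by DESeq2 (9 genes in all) and with a term for libraries 4 and 5 (9 in all). The median log2 fold change ran from 0.23 with upper-quartile factors to 0.52 without WT 1 and WT 5, and from 0.23 to 0.45 with each library left out in turn. Upper-quartile factors moved the median of all genes from -0.01 to -0.11, and 23 of 35 genes were then above 0, in place of 30.

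Over all genes 862 were called, 70.1% of them higher, which became 53.7% with library size alone, 54.6% with upper-quartile factors, 59.8% with the term for libraries 4 and 5, 54.9% and 55.5% on log2 TPM with 1 and 0.1 added, and 82.5% in libraries 4 and 5 alone. The number was 1629 with DESeq2, 1431 with the term for libraries 4 and 5, 298 in libraries 1 to 3 alone, 57 in 4 and 5 alone, 449 without WT 1 and WT 5, 388 without these and DKO 3, and 402 to 1618 with each library left out. Of the other interferon-stimulated genes, 15 were called, and 23 with DESeq2, 2 in libraries 1 to 3 alone, 0 in 4 and 5 alone, 9 without WT 1 and WT 5, 5 without these and DKO 3, and 4 to 16 with each library left out. The call of Dtx3l between libraries 4 and 5 and 1 to 3 was lost with 7 of the 10 libraries left out in turn (0 to 1). The cause of these moves was not tested.

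The replicate numbers were not taken to pair the libraries, since the deviations from the genotype means correlated at -0.10, 0.06, -0.23, 0.20 and 0.10 for numbers 1 to 5. With a replicate block 6 of the 36 genes rose, 547 genes and 6 of the other interferon-stimulated genes were called, and DKO 4 alone was the best partner of the WT library of its own number.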
